A study of Mus musculus with 10 samples.

Results

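The hippocampus of adult mice whose parents had eaten a low-protein (LP) diet was compared with that of mice from normal-protein (NP) parents. Its members are 4 of the 10 RNA sequencing libraries, chosen by the library number in the column name: male LP against male NP, and female LP against female NP, with 1 library each. All mice were of the outbred CF1 stock and were taken at postnatal day 56. Dams and sires of the LP mice ate the LP diet at mating, and the dams stayed on it through pregnancy and nursing, while the parents of the NP mice were kept on the NP diet over the same time. All pups, LP and NP, were given the NP diet from weaning at postnatal day 21 for 5 weeks, so the groups differed in the perinatal diet and not in what they ate as adolescents. The other 6 libraries are prefrontal cortex of both sexes and hypothalamus of males. Whether a library holds 1 mouse or several is not given. With 1 library for each region, sex and diet, p-values set the LP difference against a spread. That spread is how far the LP difference varied between male and female pairs in hippocampus and prefrontal cortex, shared in part across genes. Differences of sex, mouse and library preparation are mixed in that spread. Libraries were made from 1 µg of total RNA with a TruSeq kit.

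The hippocampus forms and retrieves memories of places, events and other animals. Its excitatory neurons answer strong synaptic input by transcribing immediate early genes within minutes. Some of these encode transcription factors (the Fos, Jun, Egr and Nr4a families) and others act directly at the synapse (Arc, Homer1). Calcium and cyclic AMP signals reach many of these genes through the factor CREB, which binds the cyclic AMP response element (CRE), and accumulation of misfolded protein in the endoplasmic reticulum reaches chaperone genes such as Hspa5 through the ER stress response element (ERSE).

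Of 11433 genes that could be tested in both pairs, 22 were higher in LP (0.192% of the genes tested) and 9 were lower (0.0787%), with edgeR's quasi-likelihood F test and a Benjamini-Hochberg adjusted p under 0.05. The genes higher in LP held 9 members of the activity-induced lists, among them 7 transcription factor genes (Nr4a2, Egr2, Egr1, Fos, Nr4a3, Jun and Nr4a1) and the synaptic genes Homer1 and Arc. They also held Hspa5, the choroid plexus gene Ttr, the class I histocompatibility gene H2-D1 and the clock gene Per1. DESeq2 called 13 of the 31: Egr2, Fos, Nr4a2, Homer1, Per1, Hspa5, Ttr, H2-D1, BC002163, Glns-ps1, Rpsa-ps10, Hba-a1 and Hba-a2, so that Egr1, Nr4a1, Nr4a3, Jun and Arc did not pass with it. Without a filter on low counts 5 genes passed (Capn11, Glns-ps1, Gm10704, Nr4a2, Nudt13), and without the female hippocampal pair 80 genes passed. The genes lower in LP held both alpha globin genes, the mitochondrial hydrolase gene Nudt13 and Ndufs5.

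The promoters of 5 of the genes that rose are shown here because all 5 hold the CRE core and Hspa5 holds the ERSE as well. Each line runs 5′ to 3′ from 250 bases before to 50 bases after a RefSeq transcription start (GRCm38.p6, plus strand). Capitals mark the CRE core TGACGT, or ACGTCA on the other strand, in the first 4, and the ERSE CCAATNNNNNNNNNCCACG, not the core, in Hspa5.
Egr2, chr10:67537619-67537918: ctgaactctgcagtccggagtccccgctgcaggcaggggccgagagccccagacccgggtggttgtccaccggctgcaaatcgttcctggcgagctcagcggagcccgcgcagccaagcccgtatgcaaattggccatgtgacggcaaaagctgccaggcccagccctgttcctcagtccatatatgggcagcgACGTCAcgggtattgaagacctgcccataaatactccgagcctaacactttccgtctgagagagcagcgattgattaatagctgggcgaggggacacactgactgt
Fos, chr12:85473640-85473939: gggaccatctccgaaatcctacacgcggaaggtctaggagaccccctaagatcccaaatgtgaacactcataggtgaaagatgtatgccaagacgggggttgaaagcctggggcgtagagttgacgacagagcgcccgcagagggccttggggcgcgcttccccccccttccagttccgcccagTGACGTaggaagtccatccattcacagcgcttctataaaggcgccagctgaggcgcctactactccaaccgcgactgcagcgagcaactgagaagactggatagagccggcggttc
Homer1, chr13:93303507-93303806: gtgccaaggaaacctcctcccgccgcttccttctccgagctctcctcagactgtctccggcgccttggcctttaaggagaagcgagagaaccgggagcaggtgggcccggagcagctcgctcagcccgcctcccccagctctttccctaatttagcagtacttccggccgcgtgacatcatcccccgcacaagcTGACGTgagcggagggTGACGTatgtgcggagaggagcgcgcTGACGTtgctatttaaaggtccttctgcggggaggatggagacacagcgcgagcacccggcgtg
Nr4a3, chr4:48045055-48045354: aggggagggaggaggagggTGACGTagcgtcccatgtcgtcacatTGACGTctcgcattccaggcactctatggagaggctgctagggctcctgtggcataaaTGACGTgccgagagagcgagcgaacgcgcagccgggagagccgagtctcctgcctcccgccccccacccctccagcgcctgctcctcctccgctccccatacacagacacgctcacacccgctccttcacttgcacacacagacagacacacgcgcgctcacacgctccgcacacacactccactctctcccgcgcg
Hspa5, chr2:34771840-34772139: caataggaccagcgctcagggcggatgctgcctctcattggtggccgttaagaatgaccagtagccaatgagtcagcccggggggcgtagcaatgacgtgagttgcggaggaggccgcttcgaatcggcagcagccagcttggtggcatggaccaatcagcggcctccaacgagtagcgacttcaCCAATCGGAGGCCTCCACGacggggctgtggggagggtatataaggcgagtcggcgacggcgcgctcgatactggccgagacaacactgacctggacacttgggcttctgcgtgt

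Both motifs were searched on both strands and share no base in these windows. Where RefSeq lists several starts for a gene, one whose window holds the motif is shown. Homer1 and Nr4a3 held 3 copies each within 300 bases, and Egr2 and Fos 1 each. Hspa5 held 1 CRE core as well as 1 ERSE, and Per1 held 1 CRE core in its promoter. Of the 16 protein-coding genes that rose, 13 had a promoter in the RefSeq table, and 6 of these held the core at 1 or more starts, against 8.37% of all 27025 genes in the table. Counted over starts, 36.4% of their 22 promoters held it, against 7.51% of all 32851. The ERSE was present in 1 of the 13, against 0.137% of all genes. Of the 5 protein-coding genes that fell and had a promoter in the table, 0 held either motif. Egr2 also held a serum response element, which 1.81% of all genes held. A match describes these letters in this window and not the binding of a factor.

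Of 14 tested members of the immediate early transcription factor list 7 rose and 7 did not pass, and all 14 fold changes were positive with a median log2 of 0.57, against 5580 positive among 11433 genes and a median of 0.00. The medians in the single pairs were 0.65 in males and 0.48 in females. Both LP libraries lay above both NP libraries for 8 of the 14, where 17.8% of all genes had such values and 16.9% had both LP libraries below.

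Egr2, a zinc finger factor gene (ENSMUSG00000037868, chr10:67535475-67542188), stood at 37.8 CPM (counts scaled to a library total of 1000000) in the male and 17.1 CPM in the female LP library, against 11.6 CPM and 5.75 CPM in the male and female NP libraries. Both LP values lay above both NP values, and on each diet the male library stood above the female one. The fitted fold change was 3.16 (log2 1.66 ± 0.19 SE, 2 pairs, edgeR adjusted p = 0.000625). Fos, an AP-1 subunit gene (ENSMUSG00000021250, chr12:85473890-85477273), had 120 CPM in the male and 52.7 CPM in the female LP library, against 54.2 CPM and 27.1 CPM in the NP libraries of the same sexes. The groups overlapped because the male NP library stood above the female LP library, while LP was above NP within each sex. The fold change was 2.11 (log2 1.08 ± 0.13, edgeR adjusted p = 0.000963).

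The 3 Nr4a genes, which encode orphan nuclear receptors, all rose. Nr4a2 (ENSMUSG00000026826, chr2:57106830-57124003) was at 185 CPM and 150 CPM in the male and female LP libraries, against 107 CPM and 96.0 CPM in the male and female NP libraries. The groups did not overlap, and the sexes differed less than for Fos or Egr2 (1.65-fold, log2 0.72 ± 0.07, edgeR adjusted p = 0.000379). Nr4a3 (ENSMUSG00000028341, chr4:48045153-48086447) had 331 CPM and 305 CPM in LP, against 250 CPM and 219 CPM in NP, for the male and female libraries in that order. It rose 1.36-fold without overlap of the groups (0.44 ± 0.06, edgeR adjusted p = 0.00224). Nr4a1 was at 282 CPM and 170 CPM in LP, against 185 CPM and 111 CPM in NP (male, then female), so that the male NP library exceeded the female LP library. Its ratio was 0.61 on the log2 scale in each pair (edgeR adjusted p = 0.0491).

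Egr1, the zinc finger gene used as a marker of neuronal activity, had 618 CPM and 413 CPM in the male and female LP libraries, against 377 CPM and 260 CPM in the male and female NP libraries. It rose 1.61-fold (0.69 ± 0.08, edgeR adjusted p = 0.000719). Jun, the AP-1 partner of Fos, rose 1.30-fold (0.38 ± 0.07, edgeR adjusted p = 0.0431), and lost the call without the male hippocampal pair or without either prefrontal cortex pair. Among members that did not pass, Npas4, a neuron-restricted factor gene, had log2 ratios of 0.69 in the male and 1.17 in the female pair (edgeR adjusted p = 0.383). Egr3 had 84.2 CPM and 81.1 CPM in LP, against 61.7 CPM and 57.5 CPM in NP (male, then female), with edgeR adjusted p = 0.474. Maff and Atf3 were positive in the male pair (1.90 and 0.93) and at -0.20 and -0.02 in the female pair, on 7 to 33 counts in each library.

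Male libraries had more of these transcripts than female ones on either diet. Among the 14 genes the male LP library exceeded the female LP library for 12, and the male NP library exceeded the female NP library for 12. The male NP library exceeded the female LP library for 4. Summed over the list, the libraries held 2003 CPM (male LP) and 1465 CPM (female LP), against 1298 CPM (male NP) and 989 CPM (female NP). The sex difference itself was not tested.

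**Figure D1:**
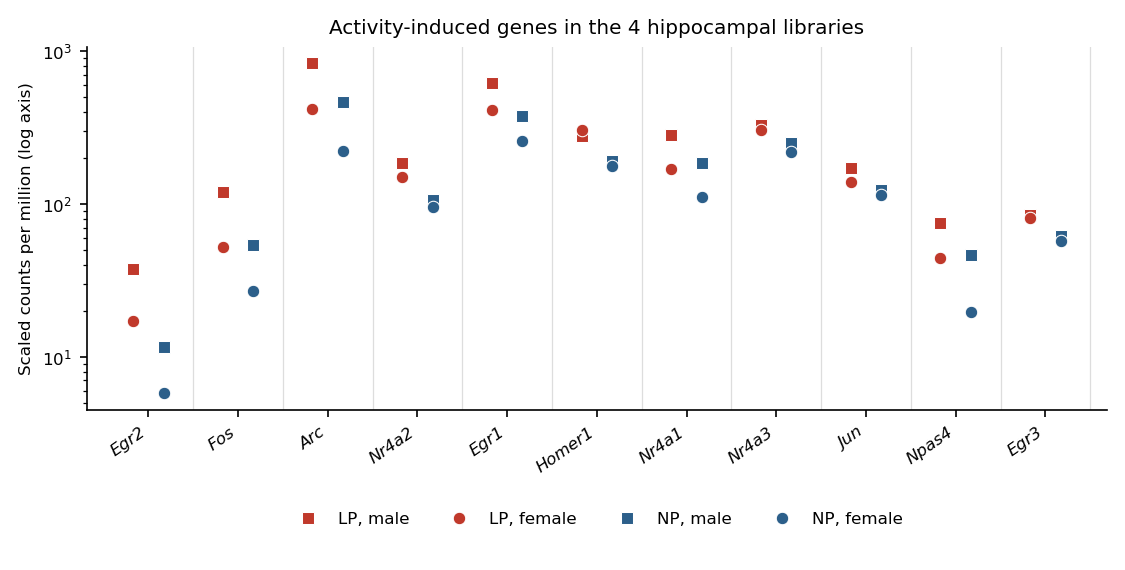
Scaled CPM (log axis) of 11 activity-induced genes in the 4 hippocampal libraries, LP in red to the left and NP in blue to the right of each gene, squares for male and circles for female libraries. Each symbol is 1 library. In every gene shown LP lies above NP within each sex, and for Fos the male NP square (54.2 CPM) lies above the female LP circle (52.7 CPM).

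A further 6 members of this list lie on chromosomes for which the female NP library held no counts, so they were read in the male pair alone, with no test. All 6 had a positive log2 ratio (median 0.65), and 4 had separate 95% Poisson intervals and were higher in LP. Over the 4476 genes of this kind with a mean of at least 5 CPM, 3.91% had separate intervals and were higher in LP, and 4.4% were lower. Fosb, another AP-1 subunit gene, had 561 counts in LP (67.2 CPM, interval 61.7 to 73.0) against 209 counts in NP (26.3 CPM, interval 22.9 to 30.2), a log2 ratio of 1.34. Egr4 was at 62.9 CPM in LP and 33.8 CPM in NP (0.89), Fosl2 at 158 CPM in LP and 95.5 CPM in NP (0.73), and Junb at 162 CPM in LP and 109 CPM in NP (0.57). The female LP library, which has no NP partner for these genes, held 54.2 CPM of Fosb and 49.3 CPM of Egr4. These intervals cover counting error and not differences between animals.

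Of 30 tested effector genes induced by activity 2 rose and 28 did not pass, 27 fold changes were positive, and the median log2 was 0.31. Both LP libraries lay above both NP libraries for 14 of the 30, against 17.8% of all genes tested. Homer1, a postsynaptic scaffold gene whose short form is activity-induced (ENSMUSG00000007617, chr13:93299635-93405129), was at 279 CPM and 305 CPM in the male and female LP libraries, against 190 CPM and 176 CPM in the male and female NP libraries. The groups were well apart and the sexes close, with a 1.59-fold rise (0.67 ± 0.07, edgeR adjusted p = 0.000625). The gene table does not separate the short from the long Homer1 transcripts.

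Arc, which encodes a protein that drives removal of AMPA receptors from synapses (chr15:74669083-74672570), had 832 CPM and 420 CPM in LP, against 465 CPM and 223 CPM in NP (male, then female). The groups overlapped between sexes, and Arc was higher in LP within each sex (1.83-fold, 0.87 ± 0.14, edgeR adjusted p = 0.0118). Other effectors had values in the same direction without passing: Arid5a at 0.58 ± 0.13 (edgeR adjusted p = 0.131), the kinase gene Sik1 at 0.62 ± 0.16 (0.282) and the feedback inhibitor gene Errfi1 at 0.32 ± 0.07 (0.153). Bdnf, the neurotrophin gene that activity induces through several promoters, was at 0.16 ± 0.09 (edgeR adjusted p = 0.933). The inducible cyclooxygenase gene Ptgs2 had ratios of -0.18 in males and 0.26 in females. Per1, a clock gene that also answers cyclic AMP signals, had 245 CPM and 208 CPM in LP, against 161 CPM and 171 CPM in NP (male, then female). It rose 1.37-fold (0.45 ± 0.07, edgeR adjusted p = 0.0116), a call lost without the male hippocampal pair. Of the 15 tested genes of the core clock list Per1 alone passed, and Per2 was at 0.38 ± 0.07 (edgeR adjusted p = 0.0577).

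Among chaperone genes 1 passed, the endoplasmic reticulum gene Hspa5. Of 18 tested genes of the endoplasmic reticulum list 1 rose, 17 did not pass and 14 were positive (median 0.11). Hspa5, the chaperone BiP of the endoplasmic reticulum (ENSMUSG00000026864, chr2:34771970-34777547), stood at 534 CPM and 569 CPM in the male and female LP libraries, against 408 CPM and 410 CPM in the male and female NP libraries. Its groups did not overlap and its NP libraries were nearly equal (1.35-fold, 0.43 ± 0.07, edgeR adjusted p = 0.00718). Xbp1, the stress response factor gene, was at 0.32 ± 0.07 (edgeR adjusted p = 0.153), and the co-chaperone gene Sdf2l1 at 0.61 ± 0.16 (0.25). Read in the male pair alone, 5 of 6 members were positive. Separate intervals with LP higher were found for 4 of the 6, and for 3.91% of all 4476 genes read this way. Among the 4 were Pdia4 at 82.2 CPM in LP and 62.2 CPM in NP, and Herpud1 at 82.3 CPM in LP and 64.3 CPM in NP.

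Cytosolic heat shock genes had 0 of 16 members past the threshold, with 15 positive (median 0.12). An unadjusted edgeR p under 0.05 was reached by 7 of the 16, and by 655 of all 11433 genes tested. The inducible Hsp70 gene Hspa1b had 134 CPM and 54.3 CPM in LP, against 34.9 CPM and 36.9 CPM in NP (male, then female). The male LP library was the high one, with a log2 ratio of 1.93 in the male and 0.55 in the female pair (fit 1.32 ± 0.26, edgeR adjusted p = 0.0551). Hspa1a, its near-identical neighbour, stood at 1.66 for the male pair and 0.40 for the female pair, and reads of these genes may be divided between them. In the male pair alone all 8 members were positive (median 0.29) and 5 had separate intervals and were higher in LP. The share over all 4476 genes read in the male pair alone was 3.91%. The largest was Dnajb1, the Hsp40 partner of Hsp70, at 163 CPM in LP (interval 154 to 172) and 75.6 CPM in NP (69.7 to 81.9).

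Genes of the amino acid response, which the factor ATF4 drives when amino acids are short, had 0 of 19 members past the threshold (15 positive, median 0.04), and the serine hydroxymethyltransferase gene Shmt2 had the smallest p (0.28 ± 0.10, edgeR adjusted p = 0.694). Insulin, growth factor and mTOR genes had 0 of 27 (18 positive, median 0.02). In the male pair alone the insulin receptor substrate gene Irs2 was at 190 CPM in LP and 148 CPM in NP, and the imprinted growth factor gene Igf2 at 81.1 CPM in LP and 58.0 CPM in NP, both with separate intervals. Corticosteroid receptors and glucocorticoid targets had 1 of 17, Per1 again, which stands in both lists. Within that list Plin4, a lipid droplet gene, had 33.1 CPM in female LP against 14.6 CPM in female NP, and 9.22 CPM in male LP against 9.70 CPM in male NP. Cdkn1a, a cell cycle inhibitor gene, likewise had 21.1 CPM in female LP against 9.54 CPM in female NP, and 13.1 CPM in male LP against 13.5 CPM in male NP. The corresponding Fkbp5 values were 112 CPM and 130 CPM in LP and 99.4 CPM and 113 CPM in NP (male, then female).

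Of the synaptic lists Homer1 was the 1 gene past the threshold. Postsynaptic scaffolds and kinases had 1 of 14 members past the threshold, Homer1, and 3 of 14 positive (median -0.02). Glutamate receptors had 0 of 11 (median -0.01), presynaptic release genes 0 of 11 (-0.01), GABA genes and interneuron markers 0 of 14 (-0.01), monoamine and acetylcholine receptors 0 of 19 (-0.01), and listed ion channels 0 of 22 (-0.05). The channel list does not hold the potassium channel genes Kcnj16 and Kcnf1, which passed and are given below. Genes of psychiatric and autism risk had 0 of 18, 6 positive, and a range from -0.13 to 0.16. Ranges were wider where counts were low: from -0.50 (Drd1) to 1.47 (Htr1d, 0 to 7 counts a library) among the monoamine and acetylcholine receptors, and from -0.79 (Avpr1b, 5 to 16 counts) to 2.76 (Oxt, 0 to 5 counts) in the list of social behaviour genes. The AMPA receptor gene Gria1 was at -0.04 ± 0.05. Receptors of oxytocin and vasopressin and other genes of social behaviour had 0 of 9 with 2 positive (median -0.21), and the oxytocin receptor gene Oxtr, read in the male pair, was at 19.3 CPM in LP and 16.5 CPM in NP with overlapping intervals. DNA methylation and histone modifier genes had 0 of 25, with 22 positive and a median of 0.05; the demethylation-linked Gadd45b was at 0.73 ± 0.20 (edgeR adjusted p = 0.308) and the histone demethylase gene Kdm6b at 0.32 ± 0.08 (0.205), and both are also activity-induced. A miss of the threshold with 2 pairs does not show that these genes were unaltered.

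Several markers of the hippocampal fields were far higher in these libraries than in the other regions, and others were not. Prox1, a granule cell factor gene, lay at 161 to 186 CPM in the 4 hippocampal libraries, against 13.4 to 20.9 CPM in prefrontal cortex and 40.6 to 43.7 CPM in hypothalamus. Fibcd1, a CA1 marker, lay at 285 to 331 CPM, against 11.3 to 23.7 CPM in prefrontal cortex, and the granule cell marker Lct at 97.5 to 119 CPM, against 1.87 to 3.22 CPM. The granule cell marker C1ql2 lay at 31.6 to 40.4 CPM, against 23.7 to 30.9 CPM in hypothalamus, and Bok at 107 to 138 CPM, against 73.1 to 83.1 CPM in prefrontal cortex. Spock1 was lower in hippocampus (469 to 511 CPM) than in prefrontal cortex (574 to 642 CPM). None of the CA1 (11 tested), CA2 (8), CA3 (10), granule cell (13), mossy cell (3), astrocyte (17), microglia (14), endothelial (12), vascular and meningeal (13), oligodendrocyte precursor (8) or adult neurogenesis (15) markers passed the threshold. In bulk tissue fewer cells of a type and less RNA per cell cannot be told apart.

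**Figure D2:**
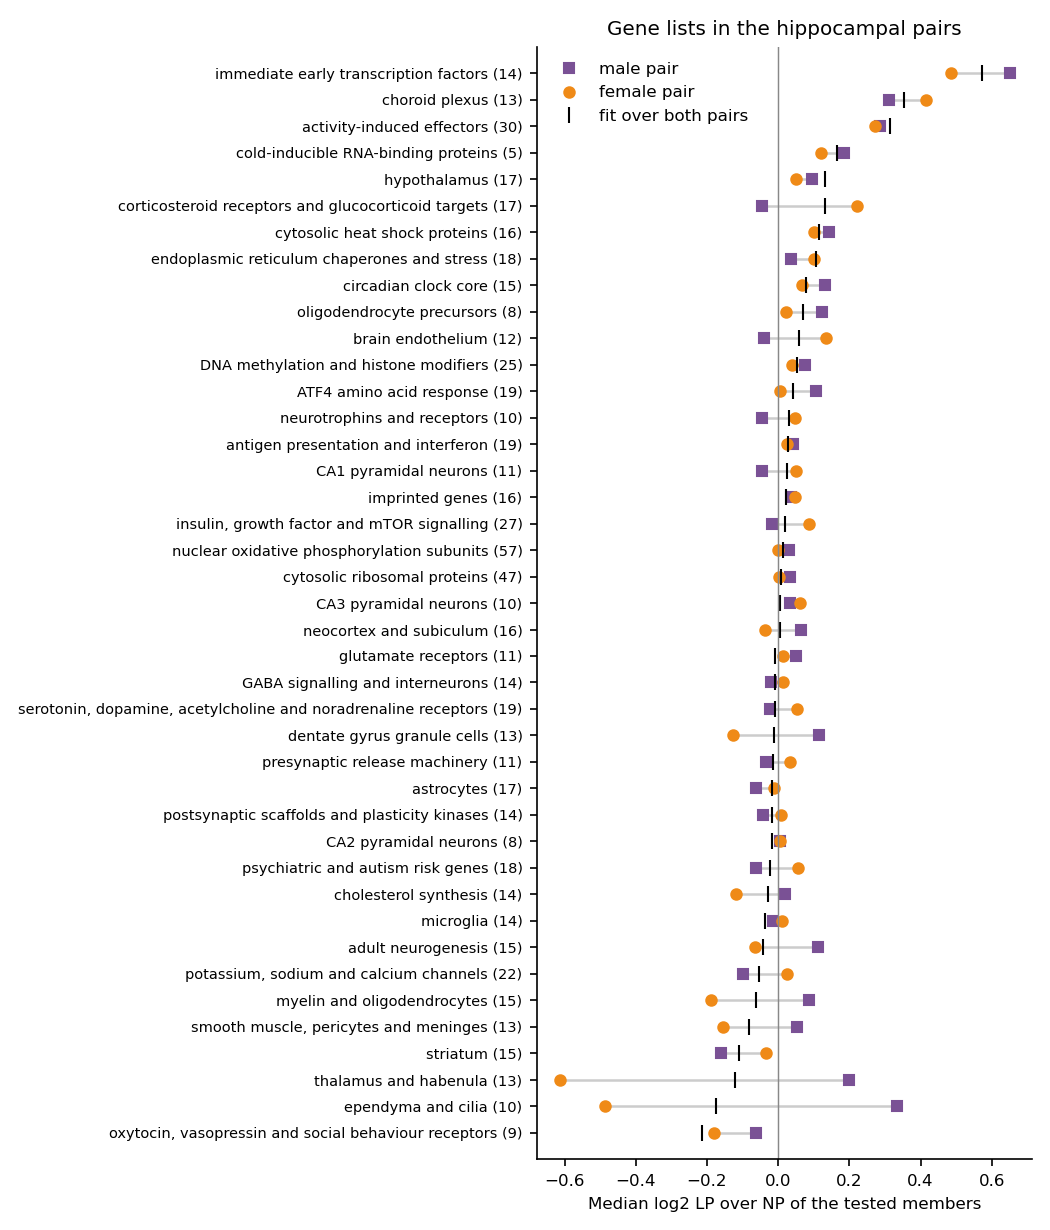
Median log2 LP over NP of the tested members of 41 gene lists, with the number tested in brackets, in the male pair (squares), the female pair (circles) and the fit over both pairs (ticks). Immediate early factors lie at 0.65 in males and 0.48 in females, and the thalamic list lies at 0.20 in males and -0.61 in females.

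Ttr, the thyroxine carrier gene that choroid plexus transcribes at very high level, was at 313 CPM and 279 CPM in the male and female LP libraries, against 157 CPM and 60.3 CPM in the male and female NP libraries. The female NP library was the low one, and the log2 ratio was 1.00 in males and 2.21 in females (2.90-fold over both, 1.54 ± 0.18, edgeR adjusted p = 0.000625). Of 13 tested choroid plexus genes Ttr was the 1 that passed, and 12 did not, while 12 fold changes were positive (median 0.35). Both LP libraries lay above both NP libraries for 9 of the 13, against 17.8% of all genes tested. Summed over the list the libraries held 757 CPM (male LP) and 731 CPM (female LP), against 522 CPM (male NP) and 440 CPM (female NP). These sums include Ttr, whose values make up most of the gap in each sex. Enpp2 (autotaxin) was at 0.28 ± 0.07 (edgeR adjusted p = 0.198) and the coagulation factor gene F5 at 0.72 ± 0.26 (0.69), and the potassium channel subunit gene Kcne2 had 19 and 10 counts in LP against 10 and 4 in NP (male, then female). The part of choroid plexus tissue in the Ttr value was not tested.

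Alpha globin transcripts, which mark blood left in the tissue, fell. Hba-a1 had 163 CPM and 165 CPM in LP, against 207 CPM and 233 CPM in NP (male, then female), and Hba-a2 had 108 CPM and 111 CPM in LP, against 142 CPM and 160 CPM in NP. The LP libraries were close to each other and lay below both NP libraries, with fits of -0.43 ± 0.06 (edgeR adjusted p = 0.00307) and -0.46 ± 0.06 (0.0036). Hba-a1 lost its call without the female hippocampal pair. In the male pair the beta globin genes were lower as well, Hbb-bs at 154 CPM in LP against 204 CPM in NP and Hbb-bt at 88.7 CPM in LP against 117 CPM in NP. The alpha globin genes are 99.8% identical over 538 bases, and their summed counts had log2 ratios of -0.36 in males and -0.51 in females.

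Markers of the thalamus, which borders the hippocampus, had ratios of opposite sign in the single pairs without passing the test, and the difference between the sexes was not tested. Of 13 tested thalamus and habenula markers 0 passed (1 pair per sex), 11 had a positive ratio in the male pair (median 0.20) and 1 in the female pair (median -0.61). Tcf7l2, a thalamic factor gene, had 15.8 CPM and 17.1 CPM in the male and female LP libraries, against 8.57 CPM and 33.2 CPM in the male and female NP libraries. The LP libraries were close to each other and lay between the NP libraries, of which the male was the lowest and the female the highest. Ramp3, a receptor activity-modifying protein gene, and Synpo2, an actin-binding protein gene, had the same order: 66 and 62 counts of Ramp3 in LP against 30 and 114 in NP, and 12.6 CPM and 17.4 CPM of Synpo2 in LP against 6.43 CPM and 27.6 CPM in NP (male, then female). The summed list stood at 447 CPM and 474 CPM in LP, against 400.5 CPM and 626 CPM in NP (male, then female).

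Ependymal and cilia genes had 0 of 10 past the threshold, with a median of 0.33 in the male pair and -0.49 in the female pair. Their summed level was 66.5 CPM in male LP and 50.3 CPM in female LP, against 57.8 CPM in male NP and 73.1 CPM in female NP, so the female LP library was the lowest and the female NP library the highest. Foxj1, the factor gene for motile cilia, had 171 and 137 counts in LP, against 143 and 203 in NP (male, then female). Myelin genes had 0 of 15 past the threshold, 11 positive in males (median 0.09) and 1 in females (median -0.19). Read in the male pair, the zinc finger gene Zic1, a member of the thalamic list, had 22.8 CPM in LP (interval 19.6 to 26.2) against 7.94 CPM in NP (6.10 to 10.2). The calretinin gene Calb2 had 44.9 CPM in LP against 19.9 CPM in NP. The part of dissection in these values was not tested.

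**Figure D3:**
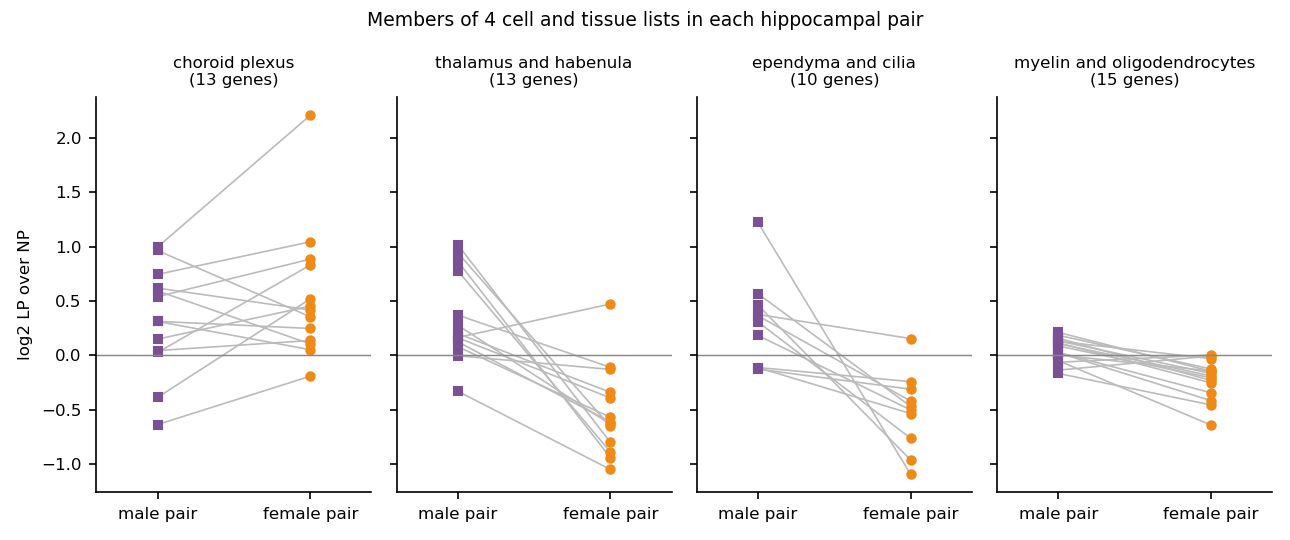
Log2 LP over NP of each tested member of 4 cell and tissue lists in the male pair (left, squares) and the female pair (right, circles), with a line joining the values of 1 gene. Choroid plexus members are mostly above 0 in both pairs (11 of 13 in males, 12 in females), while 11 of 13 thalamic members are above 0 in males and 1 in females.

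The male NP library stood apart in pituitary transcripts. Growth hormone, Gh, had 5 counts in male LP against 5319 in male NP, and 58 counts in female LP against 2 in female NP. Prolactin, Prl, had 2 counts in male LP against 1223 in male NP, and 46 in female LP against 0 in female NP, where the ratio was at least 16.0-fold (3 counts in the NP library taken as the limit of a count of 0). Gonadotropin subunit counts in the male NP library were 20 for Cga and 8 for Fshb, and both genes were at 0 in both LP libraries. The fit called Gh lower in LP (-6.14 ± 1.19, edgeR adjusted p = 0.0431), but its sign turned without the male hippocampal pair (4.84), and the groups overlapped. The list of 10 tested pituitary genes had 1 lower and 9 that did not pass, and it summed to 222 CPM and 224 CPM in LP, against 1021 CPM and 216 CPM in NP (male, then female). The ribosomal RNA gene CT010467.1 was also high in that library, at 101 CPM against 2.22 to 2.87 CPM in the other 3 hippocampal libraries, and its call (-4.25 ± 0.46, edgeR adjusted p = 0.000593) was lost without the male pair (0.14). For this reason many of the other genes are given with both pairs, while some are given by the fit alone.

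Some genes outside these groups passed. Nudt13, a mitochondrial nucleotide hydrolase gene (ENSMUSG00000021809, chr14:20294697-20317578), had 3.83 CPM and 3.27 CPM in the male and female LP libraries, against 13.1 CPM and 12.4 CPM in the male and female NP libraries. Its groups were far apart and the sexes nearly equal (log2 -1.84 ± 0.21, edgeR adjusted p = 0.000625). H2-D1, a class I antigen-presenting gene (chr17:35262730-35267499), had 427 and 423 counts in LP, against 186 and 268 in NP (male, then female), a 1.88-fold rise (0.91 ± 0.12, edgeR adjusted p = 0.00224). It was 1 of 19 tested antigen presentation and interferon genes to pass, with 10 positive and a median of 0.03.

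Kcnj16, an inward rectifier potassium channel subunit gene, had 22.8 CPM and 17.8 CPM in LP, against 13.6 CPM and 7.45 CPM in NP (male, then female), with 0.95 ± 0.16 (edgeR adjusted p = 0.017); without the female hippocampal pair the call was lost. The modulatory potassium channel gene Kcnf1 (0.43 ± 0.08, edgeR adjusted p = 0.0246) and P4ha1, a collagen prolyl hydroxylase subunit gene (0.46 ± 0.07, 0.00963), rose without overlap of the groups. Both lost the call without the male hippocampal pair. Capn11, a testis protease gene, had 3 and 1 counts in LP against 62 and 11 in NP (male, then female), and the transcript 2610507I01Rik had 9 and 6 counts in LP against 41 and 30 in NP. These calls too were lost without the male pair.

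Other calls fell on genes with near-identical copies, whose reads may be divided between the copies. Ndufs5, a complex I subunit gene, had 297 and 287 counts in LP against 508 and 430 in NP (male, then female), a fall of 0.69 on the log2 scale. Its processed copy BC002163, 99.4% identical over 319 bases, had 892 and 799 counts in LP against 515 and 570 in NP, and rose. The summed counts had log2 ratios of 0.14 in males and 0.18 in females, so that the sum differed less than either copy. Gm10704, a copy of Rtraf (98.6% over 730 bases), had 0 and 1 counts in LP against 48 and 55 in NP (male, then female), while the sum with Rtraf had ratios of -0.02 and -0.11. Glns-ps1, a copy of the glutamine synthetase gene Glul, had 433 and 440 counts in LP against 225 and 213 in NP, and the sum with Glul had ratios of -0.25 and 0.03. The pseudogene Gm11892 had 33 and 18 counts in LP and 0 in both NP libraries, at least 10.5-fold and 6.24-fold higher against 3 counts per NP library. Rpsa-ps10, a copy of the ribosomal gene Rpsa, and 5830417I10Rik, a copy of Gon4l, rose by 0.38 and 0.69, and 1500004A13Rik, which overlaps 5830417I10Rik, rose by 0.83; these 3 calls, like that of Ndufs5, were lost without the male pair.

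**Figure D4:**
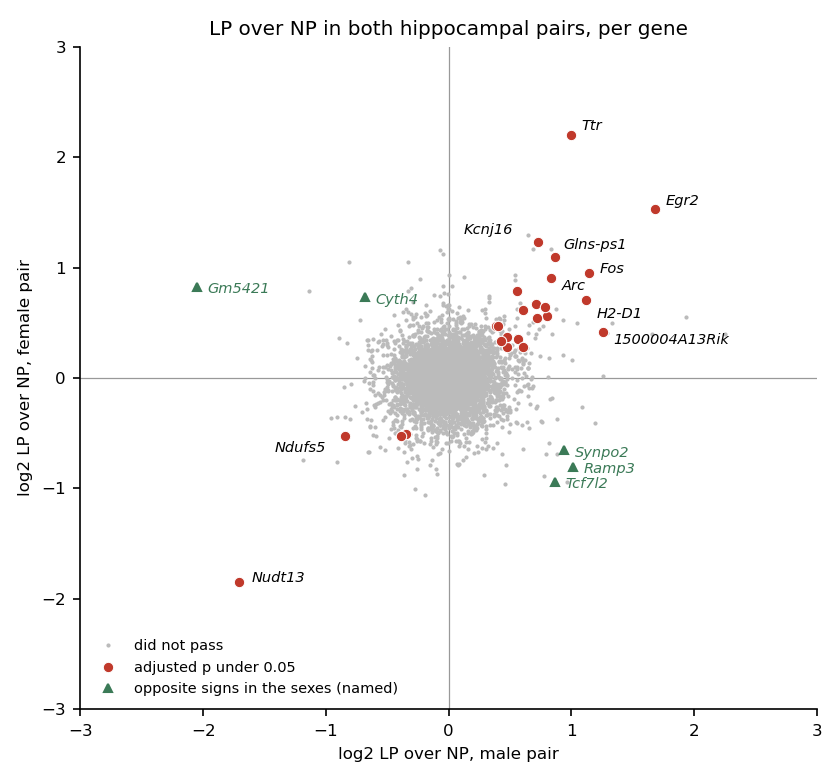
Log2 LP over NP in the male pair (x axis) and the female pair (y axis) for 8604 tested genes with a mean of at least 5 CPM, with genes past the threshold in red and 5 named genes of opposite sign as green triangles. A further 3 genes (Gh, Prl, CT010467.1) lie outside the axes. Egr2 and Ttr are the farthest red points up, Nudt13 the farthest down, and the grey points show no common direction.

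Across the 8607 tested genes with a mean of at least 5 CPM the male and female ratios had a Pearson r of -0.10 and a Spearman rho of 0.05, and 51.6% had the same sign in both pairs. This is a description across genes, which are not independent, and the pairs share no library. Gh (-9.63 in males, 3.95 in females) and Prl (-8.31 and 4.61) pull r toward negative values. An r without them was not computed. Of the 31 genes past the threshold 29 had the same sign in both pairs and 26 had LP and NP libraries that did not overlap. The exceptions in sign were Gh and CT010467.1. Among all 11433 genes tested, 17.8% had both LP libraries above both NP libraries and 16.9% had both below. The 31 were picked by a fit over these same pairs, which favours genes whose pairs match. Their counts of matching signs and of groups apart are therefore no separate check between the sexes.

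The pairs were also read singly by size, with no test. Of the genes read in the male pair alone 14 were past 2-fold with separate intervals (0.313% of 4476). The 8 that were higher were Zic1, Fosb, the synaptotagmin gene Syt9, Calb2, Dnajb1, the sulfate transporter gene Slc13a4 and the pseudogenes Gm5921 and Gm5586. The 4 lowest ratios were those of Gm42596 (3 counts in LP, 192 in NP), Adam5 (2 in LP, 144 in NP), Gm10603 (12 in LP, 157 in NP) and Gm5590 (10 in LP, 111 in NP). All 4 were high in the male NP hippocampal library alone, with 1 to 22 counts in the other 8 libraries that measured them, female LP hippocampus included, so these ratios rest on that library. The next, AW146154 and Atg4a, had ratios of -1.03 each. Just short of 2-fold lay Apold1, an early response gene of endothelium (-0.94), and Uprt (-0.86). In the female pair 13 of 8606 genes were past 2-fold (0.151%), 10 of them higher, among them Ttr, Egr2, Kcnj16, Npas4, Plin4, Cdkn1a and Glns-ps1. The xanthine dehydrogenase gene Xdh, named after its values were seen, had 76 counts in LP and 34 in NP in females, and 56 in LP and 29 in NP in males.

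The LP difference was set against that in prefrontal cortex, from libraries of the same design. No gene had a difference between the regions past the threshold (0 of 11433, 0%, edgeR's quasi-likelihood test on the difference), with 592 at an unadjusted p under 0.05, while DESeq2 also gave 0 calls, and 43 genes by its unadjusted p under 0.05. With a hippocampal or cortical pair left out, that region keeps 1 LP and 1 NP library. Genes passed in some of these fits, which are not replicated tests of the difference. Of the 31 hippocampal genes 30 had the same sign in prefrontal cortex, and 24 passed there in the same direction, where 1.33% of all genes passed. Both regions were tested in 1 fit that shares the spread of each gene, so a gene with a small spread is favoured in both. The 24 therefore cannot be weighed directly against the 1.33%. If both regions came from the same mice, their values are not independent either. The smallest p-values for hippocampus minus prefrontal cortex belonged to Nr4a3 (-0.55 ± 0.09, edgeR adjusted p = 0.206) and Nr4a2 (-0.63 ± 0.11, 0.334). Ndst4, a heparan sulfate enzyme gene, was at -2.87 ± 0.55 (0.368), a value that rests on 1 cortical library with 100 counts (male LP) against 5 in female LP and 7 in each NP library. The same difference was 1.14 ± 0.22 for the relaxin receptor gene Rxfp1 (0.368), 0.39 ± 0.08 for Apc (0.419) and 0.36 ± 0.08 for the dendritic microtubule gene Map2 (0.516). Map2 had values near 0 in hippocampus (-0.06 ± 0.05). Ttr was at 1.54 ± 0.18 in hippocampus and -0.48 ± 1.05 in prefrontal cortex.

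**Figure D5:**
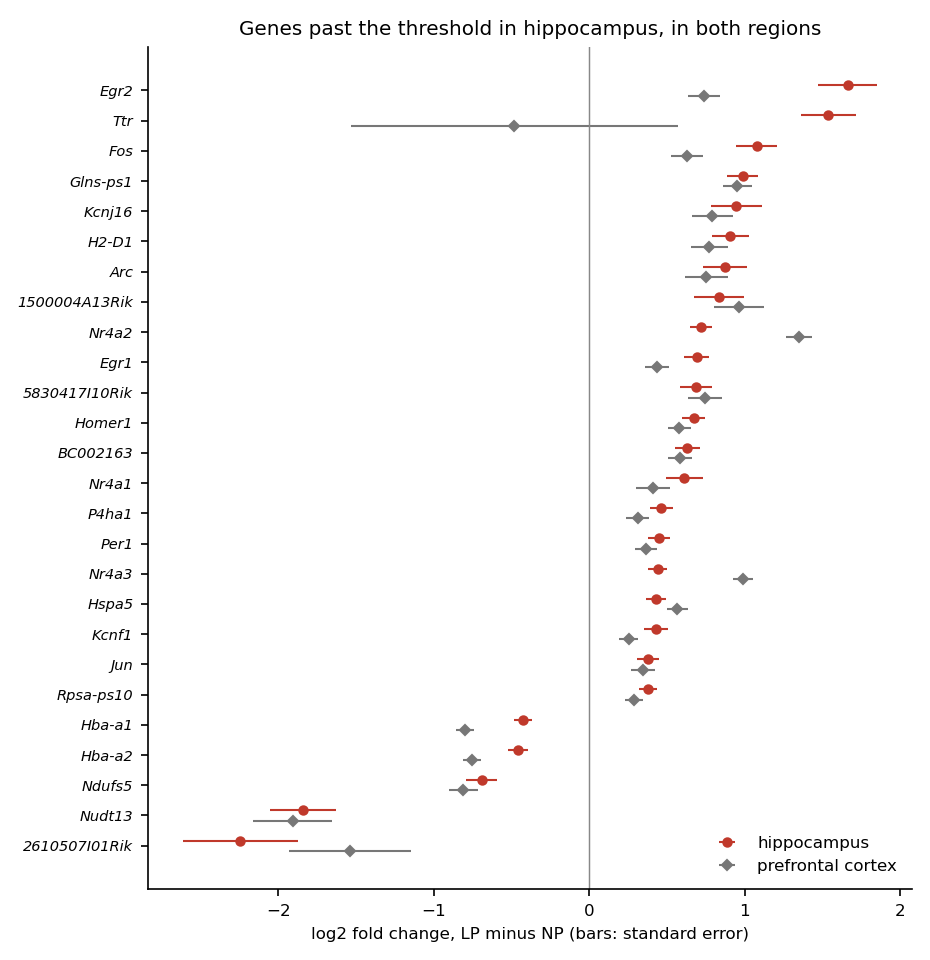
Fitted log2 fold change, LP minus NP, with its standard error for 26 of the 31 genes past the threshold in hippocampus (red circles, upper of each pair) and for the same genes in prefrontal cortex (grey diamonds, lower). The 5 genes left out have few counts or rest on 1 library (Gm10704, Gm11892, Capn11, CT010467.1, Gh). Signs match for all genes shown except Ttr, and the Nr4a2 and Nr4a3 values are larger in prefrontal cortex.

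Depth was 12979367 and 11443299 total counts in the male and female LP libraries, against 12348735 and 7871010 in the male and female NP libraries. The female NP library held counts for 15288 genes, against 23505 to 24145 in the other 3, because it has almost none beyond Park7 on chromosome 4 or on chromosomes 5 to 9, X, Y and M. For those 19598 genes no female comparison was made. Over the genes measured in all libraries the counts were 8659119 and 7630636 in LP, against 8251400 and 7867337 in NP (male, then female). On the scaled CPM used here, a count of 0 allowed up to 0.359 CPM in male LP and 0.408 CPM in female LP. The limits were 0.378 CPM in male NP and 0.392 CPM in female NP, for counting error only.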

How the data were processed

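RNA was sequenced from 4 hippocampal, 4 prefrontal cortex and 2 hypothalamic libraries. Per the submitters' processing notes, the tools were CASAVA, FastQC 0.10.1 and STAR 2.5.0a, with mm10. The values are raw, whole-number read counts for each gene, as deposited by the authors. Which counter and strand setting were used is not given, so overlapping genes and near-identical copies are uncertain.

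Gene names and positions come from GENCODE M21, in which 47310 of 47729 IDs were found. In the female NP hippocampus library, 0 counts stood at 4480 of 4481 genes from Park7 onward that averaged at least 50 counts elsewhere, and at 4 of 8581 earlier ones. The 19598 genes from there on were read in the male pair only.

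With edgeR 4.0.16 in R 4.3.3, genes passing filterByExpr (minimum count 10) were scaled by TMM over the 28131 genes measured in all 10 libraries. CPM use this scaled total. The quasi-likelihood F test had 5 strata of region and sex and 1 diet coefficient per region, leaving 2 residual degrees of freedom, so prefrontal cortex lends its spread. Benjamini-Hochberg adjustment ran over all 11433 genes tested. SE is the log2 fold change divided by the square root of F. Single-pair ratios use a prior count of 2 and exact 95% Poisson intervals. DESeq2 1.42.0 and other settings were alternatives. Copies were found with BLAST 2.17.0 (at least 90% identity over 300 bases).

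Genes named are all genes past the threshold, up to 4 members per list with the smallest p and up to 3 defining ones, the 8 largest ratios each way in the male pair alone, the 3 smallest p each way for the region difference and the 4 largest sex gaps each way. The members and the 44 gene lists were chosen with earlier results of these data known. Promoters are RefSeq sequences of GRCm38.p6, and Egr1, Arc, Ttr and Gh had no entry.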

Additional observations from a re-analysis of the deposited data

Results flagged for a closer look

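The 8 genes given here had the largest gaps between the male and female ratios, 4 each way. They were picked among tested genes with a mean of at least 5 CPM and separate intervals in both pairs. In each, LP over NP had opposite signs in the sexes, and 8 is not a count of all such genes. Across the 8607 tested genes with a mean of at least 5 CPM, 51.6% had the same sign in both pairs. With 1 pair per sex the sex difference was not tested. All values are log2 LP over NP, female minus male pair. The pituitary hormone genes Gh (13.58) and Prl (12.93) were far lower in LP in males and higher in LP in females, on the counts given for the male NP library. The pseudogene Gm5421 (2.88) had 20 counts in male LP against 85 in male NP, and 85 in female LP against 49 in female NP. Cyth4 (1.41), a gene for a guanine nucleotide exchange factor, had 18.1 CPM in male LP against 29.1 CPM in male NP, and 43.8 CPM in female LP against 26.3 CPM in female NP.

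The other 4 genes were higher in LP in males and lower in LP in females: Ramp3 (-1.82), Tcf7l2 (-1.81), Synpo2 (-1.60) and Aebp1 (-1.48). Aebp1, an extracellular matrix gene, had 175 counts in male LP against 95 in male NP, and 120 in female LP against 202 in female NP. Ramp3, Tcf7l2 and Synpo2 belong to the thalamus and habenula list, and for these the LP libraries lay between the NP libraries.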

How the results depend on the processing

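The hippocampal count of 31 genes was 13 with DESeq2 (11 higher, 2 lower, 13 shared), and 6 of the 31 have no adjusted p there. It was 5 without a low-count filter, which tests 20627 genes, and 5 with no replicate block, that is without strata of sex (5 shared each). It was 71 with the 4 hippocampal libraries only (1 residual degree of freedom, all 31 shared). RLE scaling, a minimum count of 30, edgeR's earlier method and leaving out the hypothalamic pair gave 29 to 35. Leaving out 1 hippocampal or cortical pair gave 34 to 80 genes, with 20 shared without the male and 29 shared without the female hippocampal pair; these fits have 1 residual degree of freedom. Of the 44 single genes followed through the alternatives, 4 turned sign without the male hippocampal pair: over the left-out pairs Gh ranged from -10.09 to 4.84, Prl from -9.25 to 8.75, CT010467.1 from -5.12 to 0.14 and Dlk1 from -3.20 to 0.41. Glns-ps1 passed under all 12 alternatives, and Nr4a2 under 11, all but the fit with no replicate block. Gm10704 and Nudt13 passed under all 11 that gave a value. The region difference stayed at 0 calls, except 1 with edgeR's earlier method, in fits that kept both pairs of hippocampus and prefrontal cortex. Calls appeared in some fits with a pair left out, where a region keeps 1 LP and 1 NP library. No paired analysis was possible because the labels give no shared replicate numbers; the sex strata stand in its place. In the male pair alone, 33 genes were past 2-fold with no minimum CPM and 9 with scaling by total counts, against 14, and in the female pair 54 with no minimum CPM, against 13. The cause of these shifts was not tested. With 1 library per sex and diet, differences between mice cannot be told from those between libraries, and genes under about 3 counts were not detectable.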

Other observations

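Of the 31 genes past the threshold, 3 lie in a stretch of 256 kb on chromosome 3 (GRCm38, 88576410 to 88832547), which was noticed after the values were seen. These are Gm10704, lower in LP, and 5830417I10Rik and 1500004A13Rik, higher in LP. The stretch holds 8 tested genes, and the other 5 did not pass, with log2 fold changes from -0.08 to 0.24.

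Shox2, a homeobox gene outside the lists that was also noticed after its values were seen, had 18 counts in male LP against 1 in male NP, and 28 in female LP against 69 in female NP, the same order of libraries as Tcf7l2. Of the list labelled cold-inducible RNA-binding proteins 0 of 5 tested members passed and 3 were positive (median 0.16). All 3 had both LP libraries above both NP libraries, and the 2 negative ones had both below. Among all genes tested, 17.8% had both LP libraries above and 16.9% had both below. The positive ones were Clk1 (0.28 ± 0.08), Clk4 (0.24 ± 0.08) and Rbm14 (0.16 ± 0.10). Cirbp had 626 and 544 counts in LP, against 796 and 716 in NP (male, then female), with -0.38 ± 0.08 (edgeR adjusted p = 0.0609).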
